A study of Homo sapiens with 28 samples.

Results

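H1944 cells sorted for high mVenus after exposure to GSK126 were compared with naive H1944 cells. H1944 is a human lung adenocarcinoma line. The members are 6 of the 28 RNA libraries of the series, chosen by their labels for line, agent and gate: 3 of the GSK126 high gate and 3 of naive cells, with letters A, B and C in each. The other groups used are the GSK126 low gate and the high gate under TGF-β1, with 3 libraries each. All cells carried MGT#1-mVenus, a synthetic reporter of a mesenchymal state that drives the fluorescent protein mVenus. The GSK126 gates had 5 µM GSK126 for 11 days before sorting on mVenus, the TGF-β1 gate had TGF-β1 at 5 ng/ml for 11 days before sorting, and naive cells were left unsorted. The labels do not say whether naive cells received a vehicle, whether the reporter line was 1 clone, or whether the 3 libraries of a group came from separate cultures. The p-values below therefore measure the spread between these libraries, which may be technical. Agent and sorting differ together between the GSK126 high gate and naive cells and cannot be told apart there. Both gates under GSK126 were treated and sorted, so a comparison between them bears on the gate alone.

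EZH2 is the catalytic subunit of the Polycomb repressive complex PRC2, which methylates histone H3 to give the repressive mark H3K27me3. GSK126 competes with the methyl donor S-adenosylmethionine at EZH2 and lowers that mark without removing the protein. Genes held silent by H3K27me3 include developmental regulators, and in carcinoma cells also genes of the epithelial-mesenchymal transition (EMT), in which cells lose E-cadherin junctions and gain matrix, contractile and migratory genes. TGF-β1 is the best known inducer of that transition, through SMAD proteins.

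Total counts ran from 2077191 to 4550040 in the 3 libraries of the high gate and from 2378903 to 13280592 in naive cells, the last being naive C. Reads in 376 olfactory receptor genes, a measure of background, came to 9.23, 16.9 and 76.1 CPM (counts scaled to a common library total) in high-gate libraries A, B and C, against 4.16 to 10.9 CPM in naive cells. High-gate library C stood apart on that measure. The reporter had 862, 808 and 906 CPM of mVenus in the high gate, 239.6, 209 and 280.5 CPM in the low gate, 2428, 2347 and 2263 CPM in the TGF-β1 high gate and 327, 394 and 346 CPM in naive cells. These values only check the gates, which were set on mVenus, and mVenus is left out of every count.

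Epithelial line markers were abundant in both groups, at a summed 5497 to 7776 CPM in the high gate and 5026 to 5663 CPM in naive cells, and 3 of the 7 tested rose (1 without naive A or naive C) while CDH1 fell. The lung lineage genes NKX2-1 and NAPSA were near 0 in both, with 3 counts each over the high gate, against 1 and 18 counts over naive cells. The 6 fibroblast markers summed to 7.26 to 21.2 CPM in the high gate and 0 to 3.31 CPM in naive cells, the 5 immune markers to 0.220 to 11.6 CPM and 0.832 to 3.36 CPM, and the 4 endothelial markers to 5.18 to 14.9 CPM and 10.8 to 19.3 CPM. The upper ends of the fibroblast, immune and endothelial ranges of the high gate all came from library C, which held the most olfactory receptor reads. The part of these markers in the results below was not tested. In bulk libraries, fewer cells of a type and less RNA per cell cannot be told apart.

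Promoters are shown for genes at the extremes of the comparison, to set their sequence beside their values. Of the 12 highest and 12 lowest protein-coding genes described below, 16 have a window in the RefSeq table of GRCh38.p14, covering 250 bases before to 50 after the start. The first 4 below differ in CpG content, with each CpG in capitals. TENM3 and REG1A were among the highest genes of the high gate, PRIMA1 and HAL among the lowest. Their windows lie at chr4:182143713-182144012 (plus strand), chr2:79120238-79120537 (plus), chr14:93788436-93788735 (minus) and chr12:95996295-95996594 (minus).
TENM3: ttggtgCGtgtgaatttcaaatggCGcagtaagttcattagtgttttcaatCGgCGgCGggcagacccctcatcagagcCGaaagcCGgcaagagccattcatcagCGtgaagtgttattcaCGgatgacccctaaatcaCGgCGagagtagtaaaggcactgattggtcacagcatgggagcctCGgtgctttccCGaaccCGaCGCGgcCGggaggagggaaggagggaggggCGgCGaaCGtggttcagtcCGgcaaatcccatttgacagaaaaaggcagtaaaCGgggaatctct
REG1A: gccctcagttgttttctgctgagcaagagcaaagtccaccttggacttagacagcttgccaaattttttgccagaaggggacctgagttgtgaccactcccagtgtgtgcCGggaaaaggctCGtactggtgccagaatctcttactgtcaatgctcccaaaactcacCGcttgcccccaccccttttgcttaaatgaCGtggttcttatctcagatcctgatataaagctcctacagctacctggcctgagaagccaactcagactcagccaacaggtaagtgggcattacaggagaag
PRIMA1: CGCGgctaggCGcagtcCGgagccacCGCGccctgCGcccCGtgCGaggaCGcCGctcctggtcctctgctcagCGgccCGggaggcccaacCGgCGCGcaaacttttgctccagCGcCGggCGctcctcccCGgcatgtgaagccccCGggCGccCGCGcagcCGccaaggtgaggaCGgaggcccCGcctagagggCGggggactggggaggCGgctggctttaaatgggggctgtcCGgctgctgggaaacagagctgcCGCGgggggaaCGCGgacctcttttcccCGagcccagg
HAL: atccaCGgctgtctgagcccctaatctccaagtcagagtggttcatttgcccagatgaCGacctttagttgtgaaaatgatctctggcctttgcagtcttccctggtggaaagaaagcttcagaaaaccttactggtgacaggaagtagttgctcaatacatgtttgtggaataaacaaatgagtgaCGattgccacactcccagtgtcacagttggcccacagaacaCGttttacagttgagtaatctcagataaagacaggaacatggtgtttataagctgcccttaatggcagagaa
The TENM3 window holds 22 CpG, an observed over expected ratio of 0.996, and the PRIMA1 window 35 CpG at 0.845. The REG1A and HAL windows hold 4 CpG each, at 0.213 and 0.268. The windows shown hold a CpG-rich and a CpG-poor promoter on each side. They are examples out of the 16 and support no comparison of CpG content between the sides. Of the 27305 windows in the table, 49% have a ratio of at least 0.6, and of the 9975 windows of protein-coding genes tested here 83.4%. The letters TATAAA, searched on both strands, occur once in the REG1A window and once, on the other strand, in the HAL window, as they do in 12% of all windows and 5.98% of those of tested genes.

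ANKRD1, also among the highest genes, is a muscle ankyrin-repeat gene widely used as a readout of the coactivator YAP. Its window at chr10:90921038-90921337 (minus strand) is shown with 3 motifs in capitals: TGANTCA (AP-1), GGAATG (TEAD, the partner of YAP) and CACCTG (an E-box of the kind that SNAI and ZEB factors bind).
ANKRD1: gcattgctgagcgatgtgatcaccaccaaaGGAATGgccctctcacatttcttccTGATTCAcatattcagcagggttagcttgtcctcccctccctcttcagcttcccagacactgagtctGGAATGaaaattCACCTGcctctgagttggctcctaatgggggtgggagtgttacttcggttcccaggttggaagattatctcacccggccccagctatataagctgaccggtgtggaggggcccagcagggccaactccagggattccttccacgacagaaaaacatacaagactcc
On both strands together, GGAATG occurs 2 times and TGANTCA and CACCTG occur 1 time each, with no overlap between them. GGAATG is found in 14% of all windows, TGANTCA in 7.76% and CACCTG in 20.6%, against 10.7%, 4.56% and 17.6% of the windows of tested genes. These matches describe letters, not bound sites.

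The first question is what differs in reporter-high cells after EZH2 inhibition. Of 13621 genes tested with edgeR's quasi-likelihood test (Benjamini-Hochberg adjusted p of 0.05 over all genes), 5327, or 39.1%, differed between the high gate and naive cells: 2929 (21.5%) were higher in the high gate and 2398 (17.6%) lower. The tails were unequal. At least 2-fold, 1374 genes (10.1%) were higher and 514 (3.77%) lower, and at least 16-fold the numbers were 131 and 11. The median log2 fold change of all genes was 0.016. Of the 1374 genes that rose by at least 2-fold, 391 averaged under 1 CPM in naive cells. A gene that low there is tested only if another group expresses it, so this number describes the set and supports no comparison with the genes that fell. The 1374 had a median level of 12.1 CPM in the high gate and 2.45 CPM in naive cells. The genes lower by at least 2-fold had 9.84 CPM in the high gate and 28.3 CPM in naive cells.

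**Figure D1:**
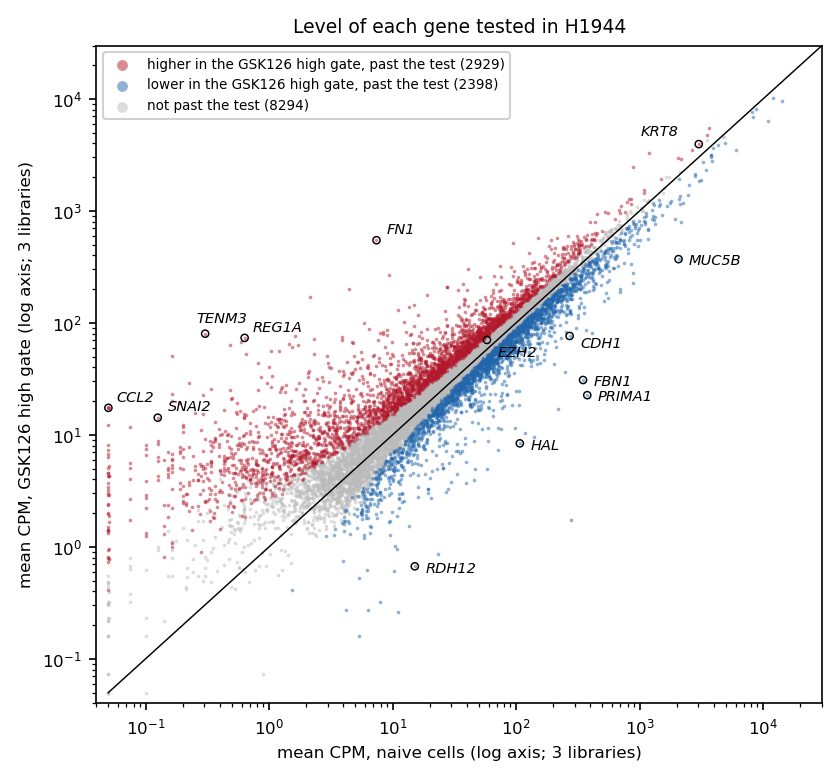
Mean level of each tested gene in the GSK126 high gate (vertical, CPM, log axis) against naive cells (horizontal, CPM, log axis), 3 libraries a group; colours mark the 2929 genes higher, the 2398 lower and those past neither. Genes near 0 in naive cells are tested only where another group expresses them, so that the left edge holds few genes below the diagonal.

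The largest differences were near-silent genes that became readily detected. TENM3 (teneurin-3, a cell contact receptor; GRCh38 chr4:182143987-182803024) had 69.2, 104 and 67.4 CPM in high-gate libraries A, B and C, against 0.420, 0.416 and 0.0753 CPM in naive libraries A, B and C. Every high-gate library was above every naive one, and the naive values rest on 3 counts, so that the ratio of 478 has a counting interval of 163 to 2320.0 (exact, 95%), and was 190 without naive C. TENM3 was also high in the low gate, at 73.7, 92.3 and 63.0 CPM, and had only 0.906, 2.91 and 1.57 CPM in the TGF-β1 high gate.

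CCL2 (chr17:34255218-34257203), the monocyte chemokine MCP-1, had 24.8, 18.3 and 9.15 CPM in the high gate and 0 counts in all naive libraries, at least 117-fold higher with a floor of 3 counts over the naive group. That bound rests on the depth of naive C and is 31.0-fold without it. REG1A (chr2:79120362-79123419), a secreted lectin of pancreas and regenerating gut, had 84.4, 73.9 and 62.1 CPM in the high gate, against 1.26, 0.416 and 0.226 CPM in naive cells. For REG1A the log2 fold change was 7.33 ± 0.31 (SE; edgeR adjusted p = 3.69e-19). It was lower in the high gate than in the low gate, which had 118, 134 and 96.4 CPM (log2 −0.63 ± 0.14, edgeR adjusted p = 0.00518), a call lost without low-gate library B.

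ANKRD1, whose promoter is shown above, had 12.3, 13.1 and 11.6 CPM in the high gate and 1 count over the naive libraries, a ratio of 224 (39.4 to 8916), or a bound of 19.8-fold without naive C, which held the count. DKK1, a secreted WNT inhibitor, had 25.9, 13.1 and 14.4 CPM in the high gate and likewise 1 naive count. The rule that chose these genes required groups that do not overlap.

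A further 6 of the 12 highest genes were of several kinds. SAGE1, a cancer-testis antigen on chromosome X, had 4.62, 10.7 and 9.15 CPM in the high gate and 0 counts in naive cells, at least 44.9-fold higher. RFTN1 (raftlin, a lipid raft protein) was at least 39.2-fold and the keratin KRT6B at least 29.7-fold higher, again from 0 naive counts. Without naive C the bounds for SAGE1, RFTN1 and KRT6B are 11.9-fold, 10.4-fold and 7.87-fold. TRIM58, a ubiquitin ligase of the erythroid lineage, FBXL7, an F-box protein, and EBF1, a transcription factor of B cells and mesenchyme, reached 19.7 to 25, 14.3 to 24.6 and 13.8 to 19.7 CPM in the high gate, on 2 naive counts each. KRT6B shares sequence with KRT6A, so reads may have been split between them.

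At the other end, PRIMA1 (chr14:93718298-93788481), which anchors acetylcholinesterase in membranes, had 12.5, 22.1 and 33.2 CPM in the high gate, against 385, 371 and 375 CPM in naive cells (log2 −4.29 ± 0.19, edgeR adjusted p = 1.18e-18). FBN1 (chr15:48408306-48645849), the fibrillin of matrix microfibrils, had 27.5, 30.1 and 35.1 CPM in the high gate, against 344, 343 and 359 CPM in naive cells (−3.63 ± 0.12, adjusted p = 6.05e-22). HAL (chr12:95972662-95996365), histidine ammonia-lyase of liver and skin, had 6.15, 10.4 and 8.67 CPM in the high gate, against 101, 111 and 109.9 CPM in naive cells (−3.84 ± 0.18, adjusted p = 3.77e-18). Their groups lie apart by the rule that chose them.

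Several others of the 12 lowest are genes of liver, kidney or gut. GYS2, liver glycogen synthase, had 9.67 to 11.0 CPM in the high gate and 108 to 131 CPM in naive cells. KNG1 (kininogen) and PRODH2 (a proline dehydrogenase of liver and kidney) peaked at 5.30 and 0.481 CPM in the high gate, against at least 37.4 and 4.16 CPM in naive cells. SEMA6A, a membrane semaphorin, fell by 3.87 ± 0.14 on the log2 scale, with 12.5 to 22.6 CPM in the high gate and 215 to 225 CPM in naive cells. RDH12, PROK2, S100A8 and the globin HBA2 were also among the 12, HBA2 being uncertain because HBA1 is nearly identical. PRODH2 and RDH12 rest on 2 and 5 high-gate counts.

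The PRC2 subunits EZH2, SUZ12 and EED did not pass the test, while other members of the complex did, in both directions. EZH2, the target of GSK126, had 70.3, 73.6 and 67.4 CPM in the high gate, against 60.5, 52.4 and 61.4 CPM in naive cells. The groups did not overlap, as was so for 45.8% of all genes tested, and the difference of 0.15 ± 0.11 (log2) missed the test (edgeR adjusted p = 0.281). The core subunits SUZ12 and EED overlapped between groups, with differences of 0.04 ± 0.14 and −0.01 ± 0.18 and edgeR adjusted p of 0.833 and 0.965. Of 14 tested members of the PRC2 and H3K27 demethylase list, 4 rose and 4 fell (median log2 0.016), together 57.1%, against 39.1% of all genes. JARID2 and EPOP, accessory subunits, rose by 0.72 ± 0.12 and 1.05 ± 0.20. EZH1, the paralog of EZH2, and the demethylase KDM6A fell, by 0.77 ± 0.16 and 0.59 ± 0.12. PHF19 and KDM6B also rose, by 0.37 ± 0.13 and 0.41 ± 0.16, and RBBP7 and AEBP2 fell by 0.38 ± 0.10 and 0.32 ± 0.11. The 4 that rose were 2 without high-gate library A, naive A or naive B, KDM6B was also lost without high-gate B, and AEBP2 was lost without high-gate C, naive A or naive C. Levels of RNA do not measure EZH2 activity or H3K27me3.

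Genes of the mesenchymal program were raised broadly. Of 35 mesenchymal genes tested (of 41 listed), 28 rose and 2 fell, with a median log2 fold change of 2.12, against 21.5% and 17.6% of all genes and their median of 0.016. The counts of every list below stand against these shares. FN1 (fibronectin; chr2:215360440-215436172) had 546, 539 and 556 CPM in the high gate, against 6.31, 8.32 and 7.61 CPM in naive cells (log2 6.07 ± 0.12, edgeR adjusted p = 1.83e-28). TAGLN, the smooth muscle protein transgelin, had 178, 129.6 and 205 CPM in the high gate, against 1.26, 1.25 and 3.92 CPM in naive cells (5.65 ± 0.21). The groups lay far apart for both genes. Of the 6 fibroblast markers 3 were tested. LUM rose, with 51 counts over the high gate and 3 over naive cells, PDGFRB rose on 9 counts and 1 count, and DCN did not pass (1.05 ± 0.52, edgeR adjusted p = 0.11), though it did without naive C. The untested THY1, PDGFRA and COL1A2 had at most 10 counts in either group. PDGFRB was no longer past the test without high-gate library C, naive B or naive C.

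CDH2 (N-cadherin), the mesenchymal cadherin, had 63.7, 47.7 and 40.4 CPM in the high gate, against 4.20, 4.16 and 6.17 CPM in naive cells (log2 3.12 ± 0.18, edgeR adjusted p = 9.82e-16). VIM, the intermediate filament vimentin, had 380.2, 275 and 356 CPM in the high gate, against 142, 174 and 148 CPM in naive cells (1.02 ± 0.11, adjusted p = 6.91e-09). Both genes were higher in every high-gate library, although naive cells already held much VIM. The 2 members that fell were FBN1, given above, and the lysyl oxidase LOXL2. CD44, an adhesion receptor often counted with EMT, fell by 0.86 ± 0.09, with 316, 342 and 279 CPM in the high gate, against 521, 528 and 523 CPM in naive cells.

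The epithelial side changed unevenly. CDH1 (E-cadherin; chr16:68737225-68835548), the adherens junction cadherin, had 64.8, 82.6 and 81.8 CPM in the high gate, against 267, 278 and 269 CPM in naive cells (log2 −1.96 ± 0.11, edgeR adjusted p = 2.29e-16). EPCAM, another epithelial adhesion protein, had 79.8, 114 and 67.9 CPM in the high gate, against 82.0, 76.5 and 81.5 CPM in naive cells (0.01 ± 0.14, adjusted p = 0.953). CDH1 was thus lower in every high-gate library, while EPCAM overlapped.

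Of 46 epithelial junction and adhesion genes tested (of 57), 23 rose and 4 fell, with a median log2 fold change of 0.52. CDH1, DSP, EVPL and PATJ were the 4 that fell. Among those that rose, CLDN2, a claudin of leaky epithelia, had 47.5, 56.3 and 54.9 CPM in the high gate, against 2.52, 2.50 and 1.88 CPM in naive cells (4.52 ± 0.27). CEACAM6 and CEACAM5, carcinoembryonic adhesion proteins, rose by 3.92 ± 0.17 and 2.83 ± 0.18, and reads may be shared between these paralogs. Of 12 keratins tested (of 20), 8 rose and 0 fell (5 rose when the compared groups were fitted alone). KRT80 had 578, 442 and 545 CPM in the high gate, against 85.3, 112 and 84.0 CPM in naive cells, and KRT17 had 301, 292 and 381 CPM, against 68.1, 79.9 and 74.4 CPM. The simple keratins KRT8 and KRT7 rose by 0.27 ± 0.10 and 0.31 ± 0.10, calls that were lost without naive A or naive C and, in turn, without high-gate C for KRT8 and high-gate B for KRT7. KRT18 overlapped between groups (0.10 ± 0.11, edgeR adjusted p = 0.482). KRT8 and KRT18 overlap at their ends and the strand setting of the counting is not given, so their values are uncertain.

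Of 13 EMT transcription factors tested, 6 rose and 2 fell. SNAI2 (Slug) had 14.7, 16.9 and 11.1 CPM in the high gate, against 0, 0 and 0.376 CPM in naive cells (log2 5.45 ± 0.42 on 5 naive counts, edgeR adjusted p = 1.77e-12). TWIST1 had 7.47, 4.15 and 4.33 CPM in the high gate, against 0.420, 0.416 and 0 CPM in naive cells, a ratio of 52.2 (13.8 to 442) on 2 naive counts, which was 13.8 without naive C, 90.6 without naive A and 90.5 without naive B. SOX4 had 164, 136 and 137 CPM in the high gate, against 13, 18.3 and 13.4 CPM in naive cells (3.24 ± 0.13). These 3 genes did not overlap between groups.

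ZEB1, a repressor of CDH1, had 17.8, 27.6 and 26.0 CPM in the high gate, against 34.9, 24.1 and 30.1 CPM in naive cells. It passed the test as lower (−0.48 ± 0.16, edgeR adjusted p = 0.0173), although the groups overlapped and it no longer passed without high-gate library A, naive A or naive C. FOXQ1 was the other that fell, by 0.65 ± 0.17, and PRRX1, TCF4 and TCF3 rose. SNAI1 had 1.98 to 5.30 CPM in the high gate and 2.79 to 7.49 CPM in naive cells (−0.43 ± 0.44, adjusted p = 0.465), and ZEB2 had 5.93 to 12.5 CPM and 6.24 to 8.41 CPM (0.16 ± 0.31, adjusted p = 0.727). Neither passed the test.

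**Figure D2:**
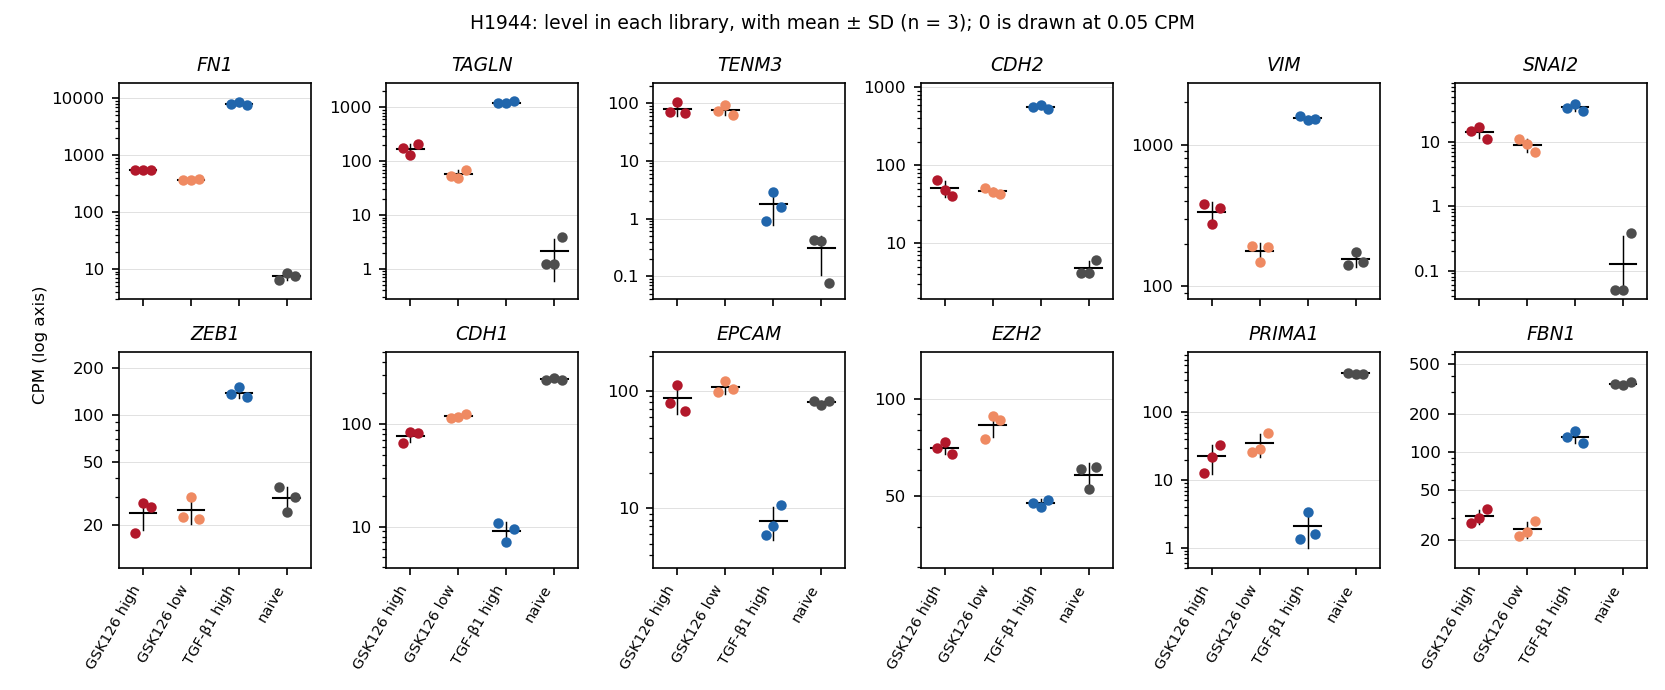
Levels (CPM, log axis) of 12 genes in the GSK126 high gate, GSK126 low gate, TGF-β1 high gate and naive cells of H1944; points are libraries, bars mean ± SD of 3, and a library with 0 counts is drawn at 0.05. FN1, TAGLN and TENM3 lie over 10 CPM in the high gate and below that in naive cells, and CDH1 lies lower in the high gate.

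The TGF-β pathway is one in which ligands bind receptor kinases that phosphorylate SMAD proteins, and SMAD7 feeds back to restrain them. Of 36 ligand, receptor and SMAD genes tested (of 45), 20 rose and 8 fell (median log2 0.61). The ligand TGFB2 had 44.2, 41.8 and 34.7 CPM in the high gate, against 0.841, 1.25 and 0.904 CPM in naive cells (5.27 ± 0.25). The ligand TGFB1 had 63.7, 52.5 and 82.8 CPM in the high gate, against 5.46, 3.33 and 5.57 CPM in naive cells (3.54 ± 0.18). Both ligands were thus far higher in every high-gate library than in any naive one. SMAD7 rose by 2.75 ± 0.17, and the activin receptor ACVR1B fell by 1.70 ± 0.11.

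Of 40 TGF-β target genes tested (of 42), 34 rose and 1 fell, with a median log2 fold change of 1.57. CCN2 (connective tissue growth factor), also a target of YAP, had 107, 106 and 89.5 CPM in the high gate, against 13, 12.9 and 11.4 CPM in naive cells (2.97 ± 0.14). Of 30 YAP and TEAD targets, 21 rose and 2 fell (median 0.63). CCN1, a matrix protein of the same family, had 139, 127 and 128 CPM in the high gate, against 11.8, 9.57 and 11.7 CPM in naive cells (3.43 ± 0.13), and the kinase NUAK2 rose by 2.0 ± 0.13. Of 28 AP-1 and immediate early genes tested, 16 rose and 2 fell (median 0.58), among them FOSB by 2.89 ± 0.22, KLF6 by 2.02 ± 0.14 and JUN by 1.37 ± 0.12.

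Matrix genes rose across classes. Of 26 collagens tested (of 40), 20 rose and 3 fell, and of 36 matrix glycoproteins and crosslinkers (of 51), 26 rose and 3 fell, with median log2 fold changes of 1.11 and 1.64. COL12A1, a fibril-associated collagen, had 219, 193 and 184 CPM in the high gate, against 4.20, 2.91 and 6.25 CPM in naive cells (5.10 ± 0.16, edgeR adjusted p = 3.77e-22). IGFBP7, a secreted growth factor binding protein, had 88.1, 62.9 and 79.9 CPM in the high gate, against 0.841, 2.91 and 1.13 CPM in naive cells (5.70 ± 0.22). Neither gene overlapped between groups. COL18A1, COL1A1 and COL7A1 rose by 3.36 ± 0.16, 2.84 ± 0.16 and 1.60 ± 0.10.

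Integrins and laminins, which tie cells to matrix, had 14 of 27 higher and 5 lower (median 0.46). The laminin chain LAMB3 rose by 1.3 ± 0.09 and ITGAV by 1.38 ± 0.10, whereas ITGB4, the hemidesmosome integrin, fell by 1.25 ± 0.09, with 325, 309.6 and 387 CPM in the high gate, against 752, 763 and 729 CPM in naive cells. Of 31 matrix proteases and inhibitors, 20 rose and 2 fell (median 1.15), with SERPINE2 up by 3.15 ± 0.15, ADAM19 by 3.84 ± 0.25 and ADAM23 by 1.82 ± 0.12. Of 27 cytoskeletal and contractile genes, 23 rose and 1 fell, or 2 without high-gate library C (median 1.04). FSCN1, the actin bundler of filopodia, rose by 3.43 ± 0.19, and MYL9, a myosin light chain, by 3.44 ± 0.19.

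**Figure D3:**
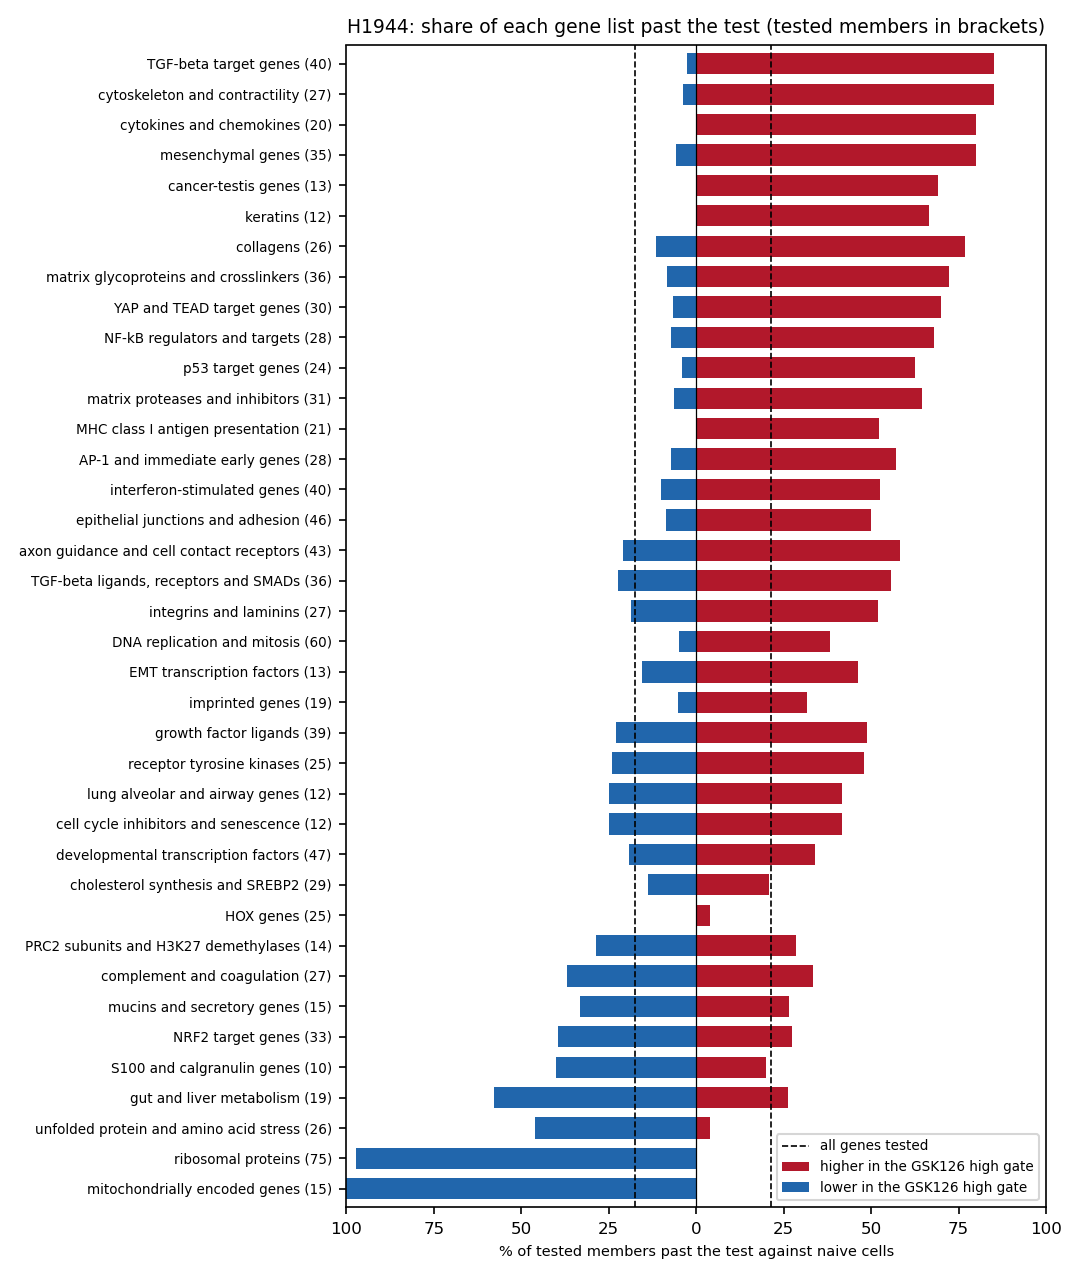
Share (percent) of the tested members of each gene list that were higher or lower in the GSK126 high gate than in naive cells, for lists with at least 10 tested members; dashed lines give the shares over all genes, 21.5% and 17.6%. TGF-β targets and cytoskeletal genes have the largest shares higher, and the ribosomal and mitochondrial lists lie wholly or almost wholly on the lower side.

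Developmental regulators are the textbook targets of PRC2. Of 105 developmental transcription factors listed, 47 passed the filter, of which 16 (34.0%) rose and 9 (19.1%) fell (median log2 0.32). The share that fell was near the 17.6% of all genes. TBX3, a limb and lung T-box factor, had 27.3, 25.9 and 23.6 CPM in the high gate, against 2.52, 1.25 and 1.20 CPM in naive cells (4.04 ± 0.27). Its paralog TBX2 had 9.23, 11.1 and 13.5 CPM in the high gate, against 56.7, 50.7 and 50.5 CPM in naive cells (−2.38 ± 0.18). The 2 paralogs thus moved in opposite directions. SOX9 rose by 1.80 ± 0.15 and FOXC1 fell by 0.89 ± 0.10.

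Of 39 HOX genes, 25 were tested, and 1 rose: HOXD13 had 11.0, 10.4 and 13 CPM in the high gate, against 3.78, 3.74 and 2.94 CPM in naive cells (1.67 ± 0.33, edgeR adjusted p = 0.000136). None fell, apart from 1 that did without high-gate library C. The median of the 25 was 0.080. HOXB8, HOXB2 and HOXA10, next in order of p, differed by −1.0 ± 0.47, −0.79 ± 0.44 and 0.27 ± 0.15 and did not pass (edgeR adjusted p = 0.0906, 0.157 and 0.168).

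Genes of cell contact and axon guidance held some of the largest changes. Of 43 tested (of 52), 25 rose and 9 fell (median 1.08). Beside TENM3 and SEMA6A, NRCAM, a neural adhesion protein, had 37.6, 38.7 and 36.1 CPM in the high gate, against 2.10, 2.08 and 2.11 CPM in naive cells (4.02 ± 0.21), and the netrin NTN4 rose by 2.38 ± 0.14. Among 25 receptor tyrosine kinases, 12 rose and 6 fell. AXL, a receptor linked to EMT and drug resistance, had 27, 19.7 and 25 CPM in the high gate, against 2.10, 0.832 and 0.753 CPM in naive cells (4.47 ± 0.35), and ROS1 rose by 4.25 ± 0.39. ERBB3 fell by 1.64 ± 0.12, with 99.8, 125 and 146 CPM in the high gate, against 356, 352 and 347 CPM in naive cells. The 6 that fell were 3 without naive C. Of 39 growth factor ligands, 19 rose and 9 fell, with WNT7B up by 2.45 ± 0.12 and NRG1, a ligand of ERBB3, by 1.53 ± 0.13.

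Inflammatory genes rose, in both GSK126 gates. Of 20 cytokines and chemokines tested (of 42), 16 rose and 0 fell (median log2 1.69), and of 28 NF-κB regulators and targets, 19 rose and 2 fell (median 0.82). The low gate against naive cells gave the same counts, with medians of 1.46 and 0.82. Between the gates, 2 of the 20 cytokines were higher and 1 lower in the high gate. Of the 28 NF-κB genes, 0 were higher and 1 lower. Over all genes 3.62% were higher and 3.31% lower. CXCL8 (interleukin-8) had 110.1, 85.3 and 27 CPM in the high gate, against 3.78, 4.57 and 3.24 CPM in naive cells (4.34 ± 0.40). CXCL5, another neutrophil chemokine, had 404, 324 and 220.0 CPM in the high gate, against 91.2, 91.9 and 91.6 CPM in naive cells (1.69 ± 0.15). TNFAIP3 (A20), an NF-κB target and brake, had 62.6, 58.4 and 25 CPM in the high gate, against 6.31, 9.57 and 7.61 CPM in naive cells (2.59 ± 0.26). High-gate library C was the lowest of its group in all 3, yet above every naive library.

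PTGS2 (cyclooxygenase-2) had 336, 304 and 139.6 CPM in the high gate, against 62.2, 69.5 and 68.7 CPM in naive cells (1.86 ± 0.22). CCL20, singled out after its values were seen, had 39.8, 44.6 and 3.37 CPM in the high gate, against 1.26, 2.50 and 1.51 CPM in naive cells. Library C of the low gate was likewise lowest of its group for CXCL8, TNFAIP3, PTGS2 and CCL20, at 35.1, 35.4, 176 and 7.48 CPM. IL32 and IL18 rose by 3.07 ± 0.22 and 1.14 ± 0.11, and the NF-κB subunits NFKB2 and RELB by 1.41 ± 0.13 and 1.52 ± 0.15. None of the 5 immune cell markers passed the count filter.

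MHC genes present antigen to T cells. Of 21 MHC class I genes tested, 11 rose and 0 fell (median log2 0.73). HLA-B had 227, 182 and 216 CPM in the high gate, against 24.0, 36.2 and 23.1 CPM in naive cells (2.87 ± 0.14), and B2M, the shared light chain, rose by 1.22 ± 0.12. HLA-C rose by 0.83 ± 0.09. Reads may be shared among these paralogs, and annotated HLA-B overlaps HLA-C. Without high-gate library A or B, 1 class I gene fell. Of 15 genes listed for MHC class II, which include the protease CTSS beside the MHC molecules, 3 were tested. HLA-DMB had 7.91, 7.60 and 11.1 CPM in the high gate, against 63.5, 61.6 and 54.4 CPM in naive cells (−2.89 ± 0.20), HLA-DMA fell by 2.36 ± 0.23, and CTSS rose by 0.82 ± 0.29, though not without high-gate library A or naive C. HLA-DPA1 and HLA-DRB1, below the filter, had 37 and 21 counts over the high gate, against 1 count each over naive cells.

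Of 40 interferon-stimulated genes tested, 21 rose and 4 fell (median 0.54). IFI27 had 14.9, 17.3 and 13.5 CPM in the high gate, against 0.420, 0.416 and 0.828 CPM in naive cells (4.27 ± 0.39). MX1 and IFI6 rose by 1.9 ± 0.19 and 2.45 ± 0.27. OAS1, a sensor of double-stranded RNA, fell by 1.36 ± 0.11, with 63.1, 71.2 and 60.7 CPM in the high gate, against 148, 157 and 157 CPM in naive cells. The antiviral genes thus did not all move one way.

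Cancer-testis genes, which are silenced in most somatic cells, were also detected. Of 45 listed, 13 were tested, and 9 rose while 0 fell (median log2 2.28). A member silent in naive cells is tested only if another group expresses it, so these counts do not describe the whole list. All 45 summed to 262.6 to 297.5 CPM in the high gate, 223.2 to 245.9 CPM in the low gate and 119.8 to 143.5 CPM in naive cells. MAGEA10 had 39.8, 42.5 and 34.2 CPM in the high gate, against 4.62, 5.41 and 4.97 CPM in naive cells (2.85 ± 0.19). SPANXB1 had 18.5, 20.4 and 7.22 CPM in the high gate, against 0.420, 0 and 0.452 CPM in naive cells (5.15 ± 0.50 on 7 naive counts). The MAGE and SPANX genes form X-linked families with near copies, so single members are uncertain. Of 19 imprinted genes tested, 6 rose and 1 fell. PEG10, a retrotransposon-derived gene, had 192, 231 and 204 CPM in the high gate, against 26.5, 30.8 and 25.8 CPM in naive cells (2.83 ± 0.12). The noncoding H19 was the one that fell, with 3 counts over the high gate and 195 over naive cells, naive being 34.3-fold higher (11.6 to 168, exact 95% counting interval), or 53.7-fold without high-gate A.

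Growth-related lists were mixed. The cyclin-dependent kinase inhibitor CDKN1A (p21) had 157, 152 and 169 CPM in the high gate, against 44.6, 58.6 and 49.2 CPM in naive cells (1.54 ± 0.11, edgeR adjusted p = 4.52e-13), and 15 of 24 p53 targets rose while MDM2 fell, though not without high-gate library C (median 0.67). PHLDA3 and TP53I3, both p53 targets, rose by 1.55 ± 0.15 and 1.08 ± 0.15. CDKN2A, the p16 locus often named as an EZH2 target, had 0 counts in every H1944 library. Of 60 replication and mitosis genes, 23 rose and 3 fell (median 0.21), with MYBL2, RRM2, FOXM1 and PLK1 up by 1.06 ± 0.12, 0.87 ± 0.11, 0.76 ± 0.10 and 0.78 ± 0.14. The 23 were 15 without high-gate library A, and the 3 were 1 without naive A or naive C. CCND1 rose by 1.22 ± 0.12 and CDKN1B (p27) fell by 0.50 ± 0.13.

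Ribosomal protein genes fell almost throughout: 73 of 75 tested, with 0 rising and a median log2 fold change of −0.66. They took 3.38% ± 0.139 of counts in the high gate and 4.88% ± 0.351 in naive cells (SD, n = 3 each). RPL13A had 1859, 1713 and 2078 CPM in the high gate, against 2988, 3518 and 2918 CPM in naive cells (−0.85 ± 0.09). The 15 mitochondrially encoded genes all fell, with a median of −0.39. Of them, MT-ND6 was lost without high-gate A or naive C, MT-CO1 without high-gate B or naive B, and MT-ND5 without high-gate C or naive A. Their share of counts was 5.64% ± 0.0621 in the high gate and 6.95% ± 0.414 in naive cells. Shares of counts are relative to the other RNA in each library.

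The second question is what differs between the reporter gates under GSK126. Of the 13621 genes, 944 (6.93%) differed between the high and the low gate: 493 (3.62%) were higher in the high gate and 451 (3.31%) lower, with 104 (0.764%) and 15 (0.11%) at 2-fold or more. The median log2 difference of all genes was 0.025. This count depends on single libraries. It was 1374 without high-gate library B, 533 and 584 without high-gate A and C, and 308 without low-gate B. It was 53 in a fit that took in the A549 libraries as well, 28 in all. Low-gate library B held 39.1 CPM of olfactory receptor reads and high-gate C 76.1 CPM, against 7.98 to 16.9 CPM in the other 4, and the part of this in the counts was not tested.

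Genes higher in the high gate included much of the mesenchymal program. Of 35 mesenchymal genes 18 were higher and 0 lower in the high gate, of 40 TGF-β targets 20 and 0, and of 27 cytoskeletal genes 15 and 0. TAGLN had 178, 129.6 and 205 CPM in the high gate, against 53.3, 48.0 and 69.6 CPM in the low gate (log2 1.59 ± 0.14). VIM had 380.2, 275 and 356 CPM in the high gate, against 194, 148 and 190.4 CPM in the low gate (0.93 ± 0.11). Both of these and FN1, with 546, 539 and 556 CPM in the high gate and 372, 359 and 377 CPM in the low gate (0.57 ± 0.08), were higher in every high-gate library than in any low-gate one; the 2 gates did not overlap for 22% of all genes. CDH1 was lower, with 64.8, 82.6 and 81.8 CPM in the high gate and 113, 116 and 125 CPM in the low gate (−0.64 ± 0.11, adjusted p = 0.000293). CDH2 did not differ past the test (0.17 ± 0.14, adjusted p = 0.492), nor did SNAI2 (0.70 ± 0.25, adjusted p = 0.081) or ZEB1 (−0.11 ± 0.17, adjusted p = 0.75). In the fit of all 28 libraries FN1 and CDH1 no longer passed, while TAGLN, VIM and the keratins KRT19 and KRT7 did.

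The largest gate differences were in genes low in the low gate. KRT19 (chr17:41523617-41528308), a simple-epithelial keratin, had 24.0, 26.6 and 26.0 CPM in the high gate and 0.319, 0.495 and 1.44 CPM in the low gate, with 18.9, 17.5 and 18.1 CPM in naive cells. Against the low gate the log2 difference was 5.02 ± 0.36 (edgeR adjusted p = 2.73e-11), and against naive cells 0.37 ± 0.22 (adjusted p = 0.175). Among the GSK126 gates and naive cells, the low gate thus stood apart. KRT19 was low in the TGF-β1 high gate as well, with 1 count, against 240 counts in the GSK126 high gate. That is a ratio of 180 (32.1 to 7153), or a bound of 38.7-fold without TGF-β1 library C. KRT7, another simple keratin, had 166, 172 and 163 CPM in the high gate, 65.7, 56.2 and 67.9 CPM in the low gate and 116, 133 and 124 CPM in naive cells.

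GPX3 (a secreted glutathione peroxidase), RARRES1 (retinoid-responsive), PLTP (phospholipid transfer protein) and ZNF469 (a zinc finger gene linked to brittle cornea) had 11.0 to 14, 6.26 to 10.3, 6.37 to 12 and 6.37 to 8.67 CPM in the high gate. Their low-gate values were at most 0.638, 0.863, 0.495 and 0.575 CPM. In naive cells they had 2.94 to 5.65, 15.4 to 22.9, 4.89 to 9.57 and 2.08 to 3.36 CPM. All 4 were higher in every naive library than in any low-gate one. These 4 and KRT19 were chosen as the 5 genes most raised over the low gate, which favours genes near 0 there. The share of all genes whose naive and low-gate libraries lie apart was not counted.

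The genes most strongly lower in the high than in the low gate were CXCL12, TMEM176B, GUCY2C, GSTA1 and EDAR, by 1.13 to 1.48 on the log2 scale. Of these calls GSTA1 alone held whichever library was left out: CXCL12 was lost without low-gate C, TMEM176B and GUCY2C without high-gate A or low-gate B, and EDAR without high-gate B or C or any 1 low-gate library. GSTA1, a glutathione transferase, had 12.7, 15.5 and 10.1 CPM in the high gate, 30.9, 30.4 and 28.5 CPM in the low gate and 0.420, 0.832 and 1.51 CPM in naive cells. CXCL12, a stromal chemokine, had 5.93, 4.84 and 3.85 CPM in the high gate, 12.4, 13.4 and 17.0 CPM in the low gate and 0.841 to 3.33 CPM in naive cells. All 5 genes passed the test as higher in the high gate than in naive cells, though CXCL12 did not without naive C, and TMEM176B did not without high-gate B or C or any 1 naive library. Between the gates 0 of 75 ribosomal protein genes, 0 of 15 mitochondrially encoded genes and 0 of 47 developmental factors differed, of which 73, 15 and 25 differed against naive cells. Of 26 collagens 11 differed between the gates and of 20 cytokines 3, with 23 and 16 against naive cells. Over all genes the shares were 6.93% between the gates and 39.1% against naive cells. With so few calls between the gates, 0 in a short list says little. A p that misses the threshold does not show equal levels. The low gate set against the same naive libraries gave 4383 genes (32.2%). They included 73 of the 75 ribosomal protein genes and 14 of the 15 mitochondrially encoded genes, all lower.

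**Figure D4:**
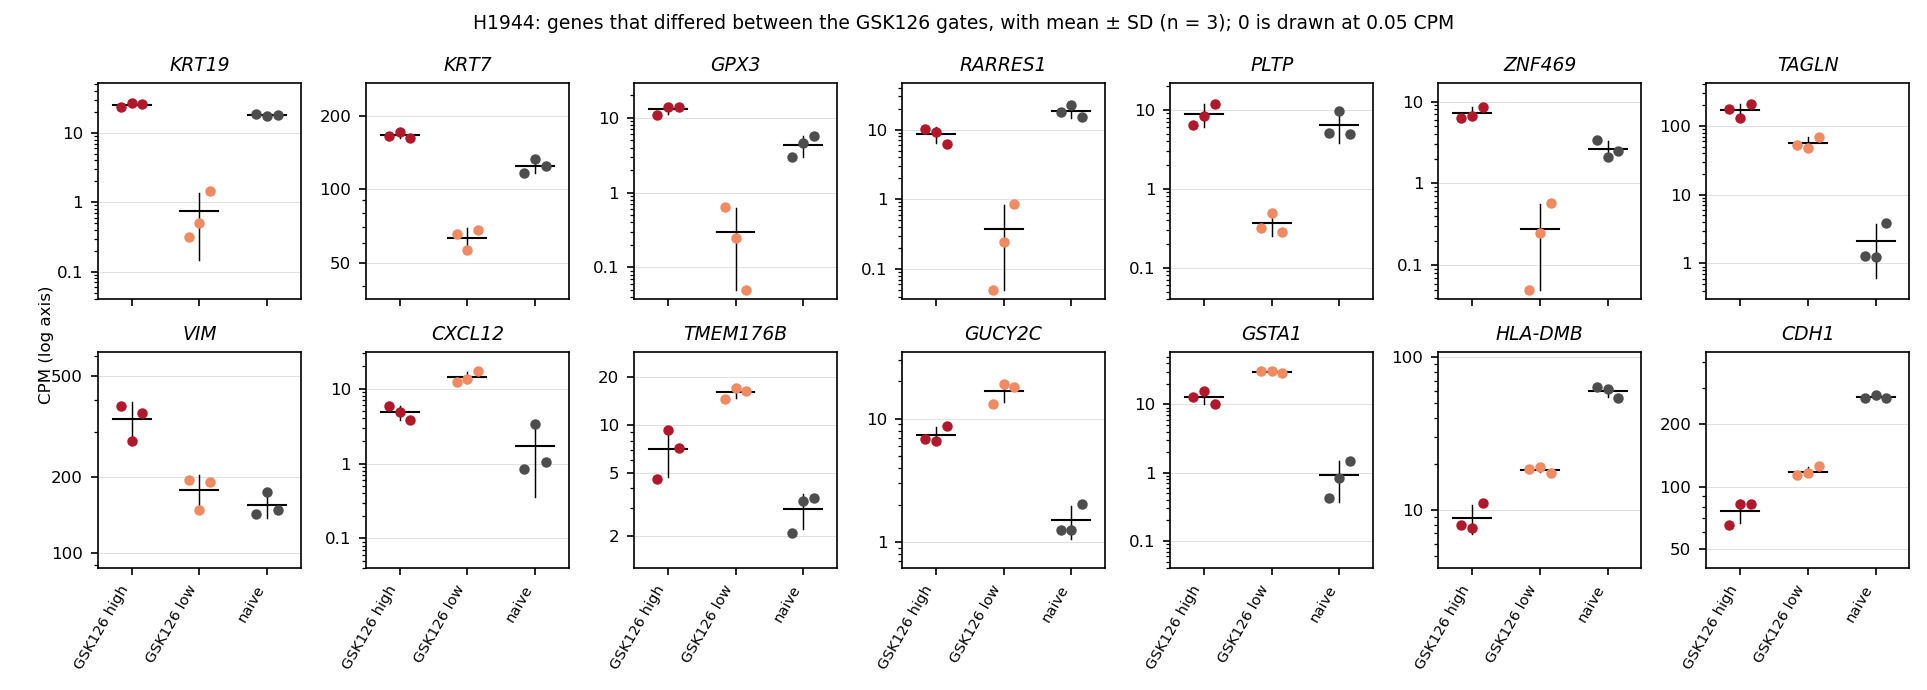
Levels (CPM, log axis) of 14 genes in the GSK126 high gate, GSK126 low gate and naive cells; points are libraries, bars mean ± SD of 3, and a library with 0 counts is drawn at 0.05. Among these 3 groups, GSTA1 and CXCL12 are highest in the low gate, and KRT19, GPX3, RARRES1 and PLTP are low in it alone. The low gate had 8, 3, 4 and 4 counts of the last 4 genes. In the TGF-β1 high gate, not drawn, they were low as well, with 1, 3, 1 and 5 counts.

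The third question is how the high gate under GSK126 differs from the high gate under TGF-β1. The agents differ, and the days and the gate label are the same. Of 13621 genes, 7342 (53.9%) differed: 3723 (27.3%) were higher under GSK126 and 3619 (26.6%) lower. Both are set against the same naive libraries elsewhere, so values are given side by side. The mVenus levels of the gates differed as well, as given above.

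Most mesenchymal and TGF-β target genes were lower under GSK126, 29 of 35 and 36 of 40, with 4 and 2 higher. FN1 had 546, 539 and 556 CPM under GSK126 and 8019, 8623 and 7469 CPM under TGF-β1 (log2 −4.07 ± 0.09, edgeR adjusted p = 1.28e-27). MMP2, a gelatinase, had 9.45, 9.67 and 11.1 CPM under GSK126, 1489, 1609 and 1361 CPM under TGF-β1, and 0 to 0.832 CPM in naive cells. COL1A1 had 63.3, 58.0 and 81.4 CPM under GSK126 and 4108, 4328 and 3719 CPM under TGF-β1. Values of both agents thus stood above naive cells, by very different amounts. CDH2, SNAI2, VIM and ZEB1 were lower under GSK126 by 3.61 ± 0.13, 1.42 ± 0.22, 2.38 ± 0.11 and 2.78 ± 0.15. ZEB1 had 17.8 to 27.6 CPM under GSK126 and 129.6 to 150.3 CPM under TGF-β1.

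Epithelial genes were mostly higher under GSK126. CDH1 had 64.8, 82.6 and 81.8 CPM under GSK126 and 10.9, 7.08 and 9.43 CPM under TGF-β1 (log2 2.86 ± 0.16, edgeR adjusted p = 3.38e-16). EPCAM had 79.8, 114 and 67.9 CPM under GSK126 and 5.89, 7.08 and 10.6 CPM under TGF-β1 (3.26 ± 0.21). Of 46 epithelial genes 32 were higher and 11 lower under GSK126. MUC5B (chr11:1223066-1262172), a gel-forming airway mucin, had 315, 383 and 415 CPM under GSK126, 1 count over the TGF-β1 libraries, and 2050.1, 1886 and 2268 CPM in naive cells. The bile acid transporter subunit SLC51B, the defensin DEFB1 and C11orf86 had 0 counts under TGF-β1, so GSK126 was at least 113-fold, 61.6-fold and 40.3-fold higher, or 72.8-fold, 39.7-fold and 26.0-fold without TGF-β1 library C and 75.1-fold, 40.9-fold and 26.8-fold without TGF-β1 library B. FGA, the fibrinogen alpha chain, had 566, 667 and 624 CPM under GSK126 and 0.833 to 1.57 CPM under TGF-β1.

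Some genes that were near 0 in naive cells were high under GSK126 and low under TGF-β1. TENM3 was higher under GSK126 by 5.25 ± 0.30 (edgeR adjusted p = 2.61e-16) and REG1A had 1 count over the TGF-β1 libraries. TWIST1 had 0 counts under TGF-β1, so GSK126 was at least 13.8-fold higher, or 9.15-fold without TGF-β1 library B and 8.87-fold without library C. The reverse held for KANK4, with 4 counts under GSK126 and 535 under TGF-β1, and for CGB8 and GPR183, with 0 counts under GSK126 and 45 and 41 under TGF-β1. TNFAIP6 had 1 and 153 counts. CGB8 has near-identical copies and is uncertain. Of 75 ribosomal protein genes 66 were higher under GSK126 than under TGF-β1 and 0 lower.

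**Figure D5:**
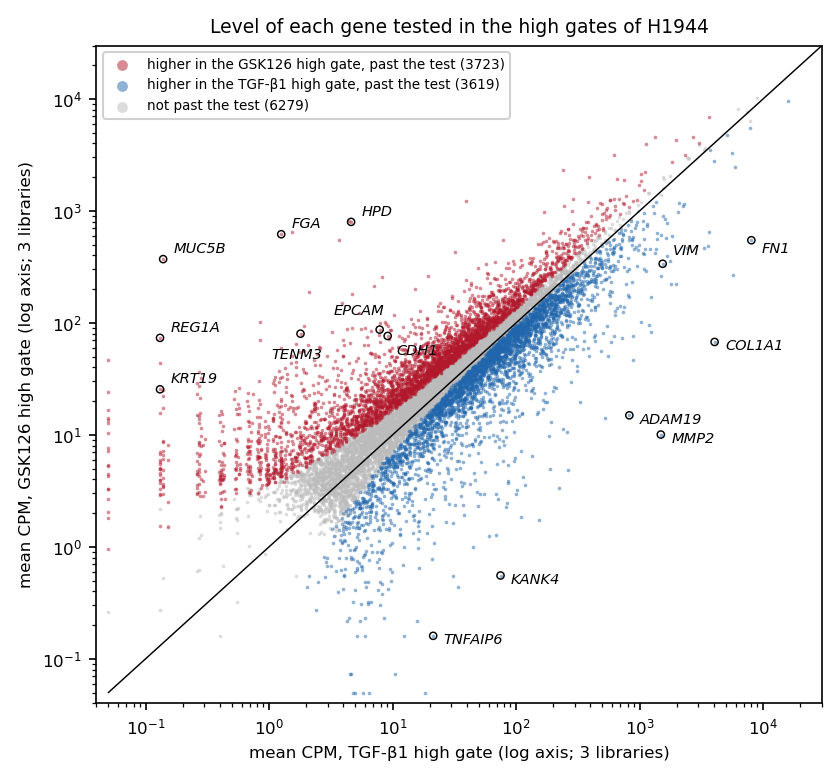
Mean level of each tested gene in the GSK126 high gate (vertical, CPM, log axis) against the TGF-β1 high gate (horizontal, CPM, log axis), 3 libraries each; colours mark the 3723 genes higher under GSK126, the 3619 lower and those past neither. MMP2 and FN1 lie far below the diagonal, and MUC5B, REG1A and TENM3 far above it.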

How the data were processed

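Total RNA (10 ng input, stranded low-input kit) was sequenced, per the labels' protocols. The authors deposited 1 table of whole-number read counts per gene, made with bcl2fastq 2.20.0, STAR 2.6.0c and HTSeq 0.12.3 on GRCh38, per the submitters' processing notes. The strand setting of the counting is not given in the sources used here, so antisense and overlapping genes are uncertain. There are no molecular identifiers, so intervals and floors cover counting error only.

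From these counts, CPM were computed with each library's total. The 15 H1944 libraries were fitted in 5 groups with edgeR 4.0.16 in R 4.3.3 (TMM, filterByExpr, quasi-likelihood F tests, Benjamini-Hochberg over all genes, threshold 0.05). The filter kept 13621 genes beside mVenus. The common biological coefficient of variation was 0.0978, with 10 residual degrees of freedom. An SE is the log2 fold change divided by the root of F. A gene at 0 counts in a group has a floor of 3 counts over that group. The scripts were tested on simulated data.

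The members and the 44 gene lists were chosen with earlier results of these data known. Lists are described by counts and medians, without a set test. A gene silent in naive cells passes the filter only through a group in which it is expressed, so counts over the tested members do not stand for whole lists. Named genes are the 12 highest and 12 lowest protein-coding genes against naive (past the test, mean of at least 2 CPM, groups apart), the 5 highest and lowest in the other comparisons, per list up to 4 members with the lowest adjusted p, short lists and key EMT and PRC2 genes; some of them are not reported here. Gene coordinates are from GENCODE 29.

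Same-letter libraries of the GSK126 gates deviated together (r = 0.148, 0.235 and 0.191 over 10132 genes), so their letters were read as pairs, from the data. The tests reported above took group means and did not use these pairs. A block by letter over all 5 groups was run as an alternative only. High-gate and naive libraries of a letter did not (−0.0454, −0.159 and −0.083), nor did the 2 high gates (0.0597, 0.0404 and 0.0281). Alternatives were other size factors and filters, DESeq2 1.42.0, limma 3.58.1 (voom), other sets of libraries, a replicate block, thinned counts and each library left out.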

Additional observations from a re-analysis of the deposited data

How the results depend on the processing

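Against naive cells, 5327 genes differed as reported. The count was 3286 in a fit of all 28 libraries, 3996 to 5272 with each compared library left out, and 4177 to 6275 under the other alternatives, which included DESeq2 (4788) and limma-voom (6275). Against the low gate, 944 genes became 570 without a filter, 510 with a filter at 1 CPM, 428 with the compared groups fitted alone and 53 with all 28 libraries; leaving out each library gave 308 to 1374. Against the TGF-β1 high gate, 7342 genes became 5637 to 7627. A block by replicate letter gave 5316, 937 and 7344 genes in the 3 comparisons; the letters pair libraries of the GSK126 gates only. Of 200 named genes past the test against naive cells, 166 passed it under every alternative that tested them and 34 lost it under at least 1. Some named genes were not tested under every alternative, as the filter left them out when the compared groups were fitted alone. No named gene or comparison reversed. Of 88 list counts against naive cells, 23 moved by over 1.5 times in the fit of all 28 libraries and at most 7 under any other alternative. List counts against the low gate and the TGF-β1 high gate were not rerun under the alternatives. In that fit of all libraries the spread also holds that of the A549 line. The comparison of promoter CpG content was void, since windows were found for 75.7% and 74.1% of the genes higher and lower by at least 2-fold, under the 80% it needed, and its alternative over all genes past the test had 78.9% of the higher genes. Where naive cells held fewer than 10 counts, folds are limited by counting error.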

Other observations

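Among genes of liver and gut metabolism more fell than rose in the GSK126 high gate against naive cells, and other secretory lists did not move one way. Over all genes 21.5% rose and 17.6% fell. Of 19 gut and liver metabolism genes tested, 5 rose and 11 fell (median log2 −0.68, against 0.016 over all genes). HPD, which breaks down tyrosine, had 722, 709 and 962 CPM in the high gate, against 2172, 2262 and 2098 CPM in naive cells (−1.57 ± 0.09), and NR1H4, the bile acid receptor FXR, fell by 2.27 ± 0.19. Of 15 mucin and secretory genes, 4 rose and 5 fell (median 0.13): MUC5B and MUC5AC fell by 2.6 ± 0.11 and 2.74 ± 0.35, while MUC1 rose by 1.27 ± 0.12. Of 27 complement and coagulation genes, 9 rose and 10 fell (median 0.0001). Among these, C5 and CD55 fell by 2.26 ± 0.16 and 1.78 ± 0.12. Of 10 S100 and calgranulin genes, 2 rose and 4 fell (median −0.05): S100A9 fell by 2.0 ± 0.10 and S100P by 1.70 ± 0.13, while S100A4 rose by 1.21 ± 0.34. Of 12 lung genes, 5 rose and 3 fell (median 0.36), with CAV1 (caveolin-1) up by 2.82 ± 0.18.

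Of 33 NRF2 targets, 9 rose and 13 fell: ALDH3A1 had 249, 232 and 285 CPM in the high gate, against 49.2, 54.5 and 50.2 CPM in naive cells (2.2 ± 0.10), whereas AKR1C3 fell by 0.93 ± 0.09. Of 26 unfolded protein and amino acid stress genes, 1 rose and 12 fell, with ASNS down by 1.17 ± 0.12 and XBP1 by 0.81 ± 0.11. Of 29 cholesterol synthesis genes, 6 (20.7%) rose and 4 (13.8%) fell (2 fell without naive C), neither share above that of all genes, with LSS up by 0.79 ± 0.11. Of 342 long intergenic noncoding RNAs tested, 43 rose and 58 fell, and of 127 processed pseudogenes 2 rose and 21 fell, against 2817 and 2145 of 12224 protein-coding genes. In both noncoding classes the share that fell was near the 17.6% of all genes, and the share that rose was below their 21.5%.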
